A study of Homo sapiens with 4 samples.

Results

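The desmosome genes examined here were 10 genes of 63856 in the count table, taken from a list of symbols and matched by Ensembl identifier: the desmosomal cadherins DSC2, DSC3, DSG2 and DSG3, the plaque genes JUP, PKP1, PKP2, PKP3 and DSP, and the membrane protein gene PERP. Each symbol matched 1 identifier and 1 row of the authors' normalized table. RNA-seq had been performed on MCF10A cells, a non-tumorigenic line of human mammary epithelial cells, with 2 biological replicates of each variant. Wild type (WT) cells had not been transduced. HSF1-pLVX cells, labelled as HSF1 overexpression, carried the HSF1 coding sequence in the lentiviral vector pLVX-Puro and had been selected with puromycin. Both variants grew in DMEM/F12 with EGF, insulin, hydrocortisone, cholera toxin and horse serum, and no age or time point is given in the labels. None of the 4 libraries was of cells with the empty vector, so the vector and its selection cannot be told apart from HSF1 in this comparison.

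Desmosomes are junctions that couple the keratin filaments of neighbouring epithelial cells. Desmogleins (DSG) and desmocollins (DSC) are cadherins that meet between the cells, plakoglobin (JUP) and the plakophilins (PKP) bind their tails inside the cell, and desmoplakin (DSP) ties this plaque to keratin. DSC2 and DSG2 are found in simple as well as stratified epithelia, whereas DSC3 and DSG3 are typical of basal cells of stratified epithelia and of the mammary myoepithelium.

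The libraries held between 18688109 and 24184285 counts, and 15830 genes passed the filter on low counts. HSF1 itself, the check of the labels, had 200 and 189 CPM (counts scaled by library size after TMM normalization, as edgeR defines it) in WT replicates 1 and 2, and 982 and 999 CPM in HSF1-pLVX replicates 1 and 2. Of 9 listed markers of mammary epithelium, all were detected in every library, 6 were lower and 3 were higher in HSF1-pLVX cells. In the test described below, 33.2% of all tested genes were lower and 32.7% higher. Of 8 fibroblast markers, COL1A1 did not pass the test and DCN rose from 1 and 3 counts to 94 and 87 counts. The other 6 fibroblast markers lay between 0 and 10 counts in every library, and the summed level of the list was between 7.88 and 10.9 CPM in WT and between 13.9 and 15.0 CPM in HSF1-pLVX cells. The summed level of 3 endothelial markers did not exceed 1.41 CPM and that of 4 leukocyte markers did not exceed 0.484 CPM in any library. The part of other cells in the results was not tested. Fewer cells with a transcript and less of it per cell cannot be told apart in these bulk libraries.

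The comparison of HSF1-pLVX with WT cells asked whether desmosome genes were among the adhesion genes that differ between the variants. All 10 passed the filter. DSC2, JUP, PERP, PKP2 and PKP3 were lower, DSC3, DSG2, DSG3 and PKP1 were higher, and DSP did not pass the test. Calls are from the quasi-likelihood test of edgeR, at a Benjamini-Hochberg adjusted p of 0.05 over all tested genes. Of all tested genes, 33.2% were called lower and 32.7% higher, so the 5 falls and 4 rises of the list are to be read against a comparison in which 65.9% of genes were called. At least 2-fold falls were called in 3 members (DSC2, JUP and PERP), against 14.0% of all tested genes, and at least 2-fold rises in 0 members, against 14.9%. Over the 10 genes the log2 fold change had a median of -0.20, beside 0.02 over all tested genes. The CPM of the groups did not overlap in 9 of the 10 genes, DSP being the exception, and in 83.1% of all tested genes.

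**Figure D1:**
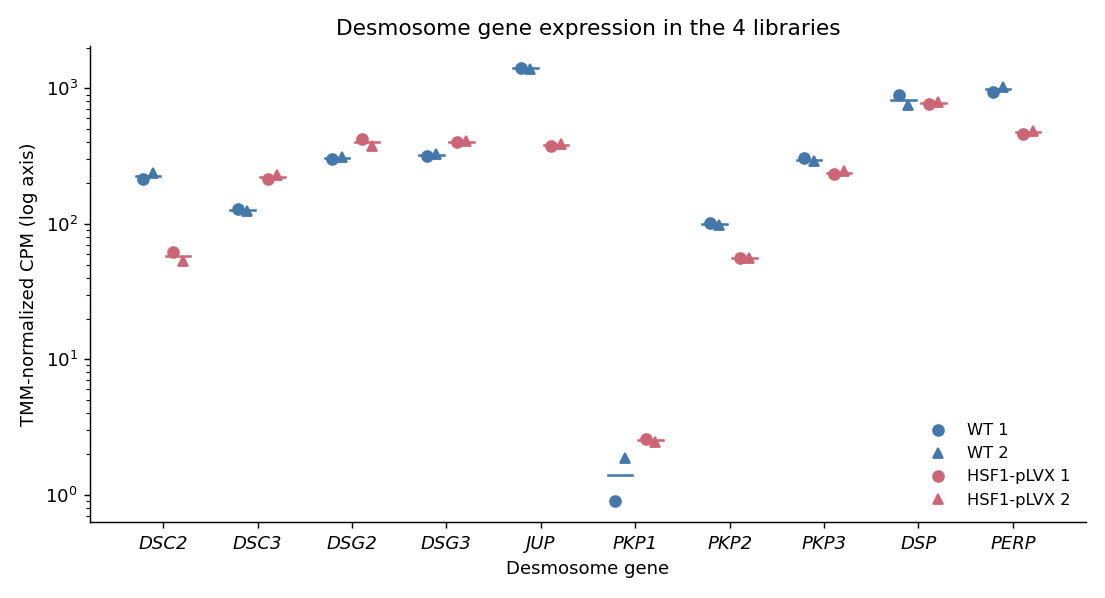
Levels of the 10 desmosome genes in TMM-normalized CPM on a log axis, with a symbol for each library and a line at the mean of each variant. WT and HSF1-pLVX libraries are apart in every gene but DSP, JUP falls from 1391 CPM or more to 385 CPM or less, and PKP1 lies below 3 CPM throughout.

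The 2 desmocollins that passed the filter moved in opposite directions. DSC2 (ENSG00000134755.14, chromosome 18 of hg38, 31058840 to 31102415) had 214 and 236 CPM in the WT replicates and 62.5 and 52.8 CPM in the HSF1-pLVX replicates. Each HSF1-pLVX library was thus well below each WT library, the mean being 3.91-fold lower. The fitted log2 fold change was -1.96 (SE 0.103; edgeR adjusted p = 8.17e-10). This fall and that of JUP were the largest of the 10 genes, and their order changed with the library left out. DSC3 (ENSG00000134762.16, chromosome 18, 30990008 to 31042815), the desmocollin of basal epithelial cells, had 129 and 124 CPM in WT and 216 and 230 CPM in HSF1-pLVX cells. Its libraries did not overlap between the variants either, and the rise was 1.76-fold in the means (log2 fold change 0.81, SE 0.0884; edgeR adjusted p = 1.62e-06).

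Per kilobase of counted exons, the scale used here to set levels of different genes side by side, DSC2 and DSC3 were at similar levels in WT cells. DSC2 was at 18.2 ± 1.24 and DSC3 at 18.0 ± 0.541 CPM per kb (SD, n = 2), and the libraries of the 2 genes overlapped, although with the length of the canonical transcript they were apart, at 18.3 and 16.7 CPM per kb in the mean. In HSF1-pLVX cells DSC2 was at 4.66 ± 0.552 and DSC3 at 31.6 ± 1.41 CPM per kb, with no overlap. The ratio of DSC2 to DSC3 was 0.944 and 1.08 in the WT libraries and 0.165 and 0.131 in the HSF1-pLVX libraries. The sum of both desmocollins, on the same scale, was 35.7 and 36.7 CPM per kb in WT and 35.6 and 36.8 CPM per kb in HSF1-pLVX cells. These sums overlapped, and their mean difference of 0.0634 CPM per kb was smaller than the SD within either variant (0.696 and 0.861). The sum depends on the length used: not divided by length it was 352 ± 11.5 CPM in WT and 280 ± 3.14 CPM in HSF1-pLVX cells, and per kilobase of the canonical transcript 35.0 ± 0.738 and 34.0 ± 0.761 CPM per kb (SD, n = 2).

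The 2 desmogleins that passed it rose together and by less. DSG2 (ENSG00000046604.12, chromosome 18, 31498043 to 31549008), the broadly expressed desmoglein, had 302 and 309 CPM in WT and 424 and 377 CPM in HSF1-pLVX cells. The HSF1-pLVX libraries were both above the WT libraries but lay further from each other, with an SD of 33.2 against 4.86 CPM. The fitted log2 fold change was 0.39 (SE 0.0954; edgeR adjusted p = 0.00236). DSG3 (ENSG00000134757.4, chromosome 18, 31447795 to 31478702), the desmoglein of basal keratinocytes and the main antigen of pemphigus vulgaris, had 317 and 326 CPM in WT and 399 and 409 CPM in HSF1-pLVX cells. Its replicates were close and the variants were apart, by a log2 fold change of 0.33 (SE 0.0903; edgeR adjusted p = 0.0051). Without HSF1-pLVX replicate 2 the adjusted p of DSG3 was 0.0582 at a log2 fold change of 0.32. The ratio of DSG2 to DSG3 per length was 0.850 and 0.846 in WT and 0.947 and 0.823 in HSF1-pLVX libraries, and these ranges overlapped.

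As a share of the summed level per length of the 4 cadherins, DSC2 made up 12.2 and 13.1% in the WT libraries and 2.86 and 2.49% in the HSF1-pLVX libraries. The share of DSC3 was 12.9 and 12.1% in WT and 17.3 and 19.0% in HSF1-pLVX cells. Of the desmogleins, DSG2 went from 34.4 and 34.3% to 38.8 and 35.5%, and DSG3 from 40.5 and 40.5% to 41.0 and 43.1%. The shares of all 4 genes were apart between the variants, those of the desmogleins by little. The summed level of the 4 cadherins was higher in HSF1-pLVX cells, at 174 ± 3.26 against 144 ± 2.60 CPM per kb (SD, n = 2). With 2 libraries a variant the smallest p of a two-sided exact permutation test is 0.333, and this was its value for each share and for this sum. Over the 7 shares tested, with those of the plakophilins, the adjusted p was 0.333 each.

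**Figure D2:**
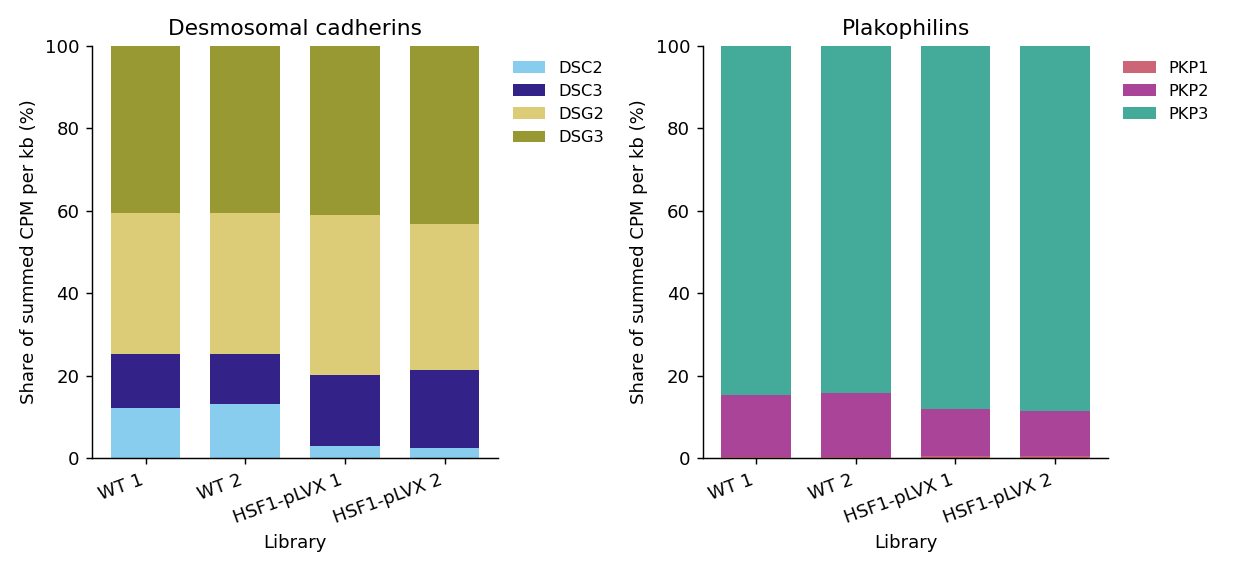
Shares, in percent of the summed CPM per kb, of the 4 desmosomal cadherins (left) and the 3 plakophilins (right), with 1 stacked bar for each library. The DSC2 segment shrinks from 12.2% or more in WT to 2.86% or less in HSF1-pLVX libraries while the DSC3 segment widens, and PKP3 makes up most of the plakophilin bar in every library.

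The 4 cadherin genes lie in 1 cluster of 559 kb on chromosome 18, in the order DSC3, DSC2, DSC1, DSG1, DSG4, DSG3 and DSG2. DSC3 and DSC2, which changed in opposite directions, are neighbours on the minus strand with 16.0 kb between them. DSG3 and DSG2, both higher, are neighbours on the plus strand with 19.3 kb between them, and 345 kb separate DSC2 from DSG3. The genes between them were at or near the floor. DSC1, the desmocollin of the upper epidermis, held between 1 and 3 counts and DSG4, a desmoglein of the hair follicle, between 0 and 2 counts in every library. DSG1, the desmoglein of differentiated keratinocytes, held 5 counts in WT replicate 2 and 0 counts in the other libraries. None of these 3 genes passed the filter, and no fold is given for them. Genes on the opposite strand that overlap a member held at most 12 counts in a library (DSG2-AS1), against at least 5668 counts of DSG2.

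**Figure D3:**
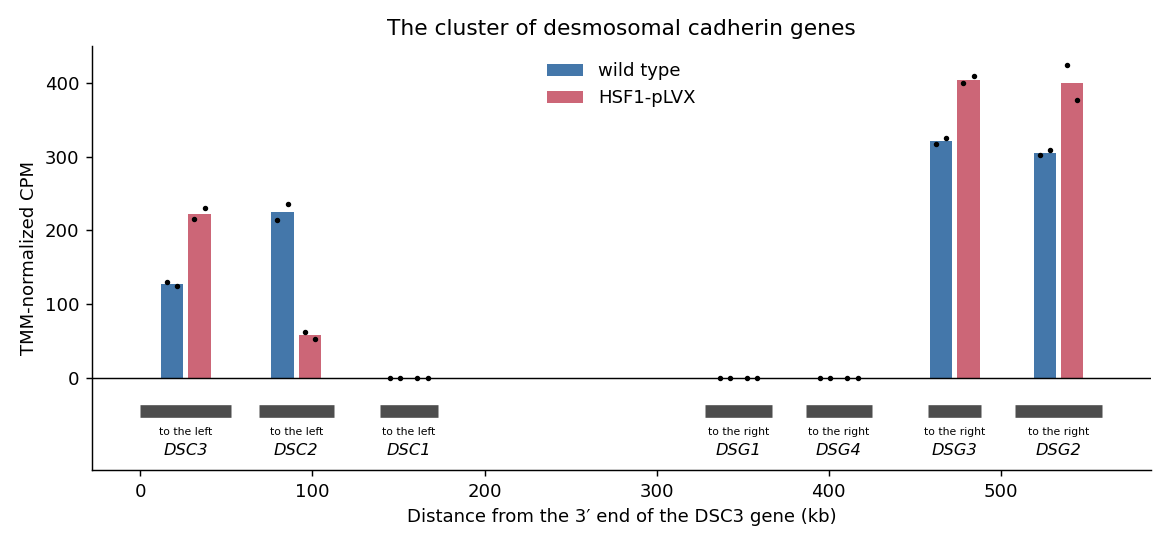
Mean TMM-normalized CPM of the 7 desmosomal cadherin genes in WT and HSF1-pLVX cells (bars from 0, points for single libraries), placed by their distance in kb along the cluster, with gene bodies and direction of transcription below. DSC2 is the only gene of the cluster that is lower in HSF1-pLVX cells among the 4 that passed the filter, and DSC1, DSG1 and DSG4 show no visible bar.

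The sequences just before these 4 genes are shown because neighbours in 1 cluster changed unlike each other. They are from RefSeq windows on GRCh38.p14, which run from 250 bases before to 50 bases after a gene's start and were shortened here to end before the first base of the gene in either the counted annotation or GENCODE 44, whichever lies further upstream. For DSC2 and DSG3 this base lies upstream of the gene start given above, which is that of the counted annotation. Capitals mark CAGGTG or its reverse complement, the E-box bound by factors of the SNAI and ZEB families. The stretches are DSC3, chr18:31042816-31042992, minus strand; DSC2, chr18:31102523-31102671, minus strand; DSG3, chr18:31447491-31447740, plus strand; and DSG2, chr18:31497927-31498042, plus strand.
DSC3: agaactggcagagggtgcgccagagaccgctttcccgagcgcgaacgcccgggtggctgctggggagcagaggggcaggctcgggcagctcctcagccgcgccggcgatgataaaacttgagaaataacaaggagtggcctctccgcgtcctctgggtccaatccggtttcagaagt
DSC2: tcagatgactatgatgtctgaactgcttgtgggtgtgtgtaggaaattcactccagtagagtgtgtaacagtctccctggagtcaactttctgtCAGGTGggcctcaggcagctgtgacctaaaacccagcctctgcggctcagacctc
DSG3: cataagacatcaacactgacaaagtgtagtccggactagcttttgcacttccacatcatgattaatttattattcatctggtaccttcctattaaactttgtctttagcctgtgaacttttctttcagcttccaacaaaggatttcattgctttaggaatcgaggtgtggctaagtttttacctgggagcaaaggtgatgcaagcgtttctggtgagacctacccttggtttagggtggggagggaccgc
DSG2: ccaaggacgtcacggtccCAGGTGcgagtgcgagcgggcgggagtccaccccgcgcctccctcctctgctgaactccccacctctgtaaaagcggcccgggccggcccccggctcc
The stretches differ in base composition, G and C making up 63.3% for DSC3, 51.7% for DSC2, 42.8% for DSG3 and 73.3% for DSG2. RefSeq windows were found for 8 of the 10 members, 10 windows in all, and not for PKP2 and PKP3. Searched on both strands over the whole windows, CAGGTG was found in 1 window each of DSC2, DSG2, DSP and JUP, that is in 4 of 10 windows, and in 20.6% of 35116 windows of all genes. The genes with it include 2 that were lower, 1 that was higher and DSP. Matches began at -156 from the RefSeq start for DSC2 and at -232 and -116 for DSG2. They began at -178 and -85 for DSP and at -54 and -43 for JUP. The DSG2 match at -116 lies beyond the stretch shown. Neither spelling of the heat shock element with 2 repeats, GAANNTTC and TTCNNGAA, was found in the 10 windows, against 13.5% of all windows, and that with 3 repeats, which contains them, was found in 0.490% of all windows. The AP-1 site TGAGTCA or TGACTCA was found in the window of PERP, and in 4.95% of all windows. These are matches of letters in short windows and not evidence of binding.

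Among the plaque genes, JUP showed the largest fall. JUP (ENSG00000173801.16, chromosome 17, 41754604 to 41786931) encodes plakoglobin, also called gamma-catenin, which serves both desmosomes and adherens junctions. It had 1424 and 1391 CPM in WT and 375 and 385 CPM in HSF1-pLVX cells, a mean 3.70-fold lower. The fitted log2 fold change was -1.89 (SE 0.101; edgeR adjusted p = 1.01e-09), and the spread within each variant was small beside it. DSP (ENSG00000096696.13, chromosome 6, 7541575 to 7586717), which encodes desmoplakin, had 898 and 752 CPM in WT and 771 and 790 CPM in HSF1-pLVX cells. Both HSF1-pLVX values lay between the WT values. The log2 fold change of DSP was -0.08, with a 95% interval from -0.31 to 0.15 (adjusted p = 0.533, edgeR), so that a change of 2-fold lies outside the interval in either direction.

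The ratio of JUP to DSP per length was 3.24 and 3.78 in WT libraries and 0.993 and 0.996 in HSF1-pLVX libraries. Plakoglobin transcripts thus went from well above those of desmoplakin to a similar level on this scale. Per kilobase of the canonical transcript the mean ratio was 4.75 in WT and 1.35 in HSF1-pLVX cells, so that the level of the ratio depends on the length used.

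The plakophilins are armadillo proteins that bind desmoplakin and cluster the cadherins. PKP2 and PKP3 were both lower, by unlike amounts, and only the scarcely expressed PKP1 was higher, with a call lost in several settings. PKP2 (ENSG00000057294.14, chromosome 12, 32790745 to 32896840), the plakophilin of simple epithelia and heart, had 102 and 98.2 CPM in WT and 55.6 and 55.8 CPM in HSF1-pLVX cells. The libraries of a variant were close and those of the variants apart, by a log2 fold change of -0.85 (SE 0.0820; edgeR adjusted p = 4.91e-07). PKP3 (ENSG00000184363.9, chromosome 11, 392614 to 404908), which is present in most epithelial desmosomes, had 306 and 289 CPM in WT and 234 and 244 CPM in HSF1-pLVX cells. This smaller fall, -0.32 on the log2 scale (SE 0.0899), passed the test (edgeR adjusted p = 0.00606), but not without HSF1-pLVX replicate 2 (adjusted p = 0.0624 at -0.34).

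PKP1 (ENSG00000081277.12, chromosome 1, 201283452 to 201332993), the plakophilin of the suprabasal epidermis, was scarcely expressed. It held 17 and 35 counts in WT and 65 and 49 counts in HSF1-pLVX libraries, which are 0.906 and 1.88 CPM against 2.59 and 2.47 CPM. Both HSF1-pLVX values were above both WT values, but WT replicate 1 decided the size of the difference. The log2 fold change of 0.86 had a 95% interval from 0.17 to 1.54 (adjusted p = 0.0286, edgeR). It was 0.45 without WT replicate 1 and 1.48 without WT replicate 2, and the call was lost without WT replicate 1 (adjusted p = 0.246), without HSF1-pLVX replicate 1 (0.0782) and without HSF1-pLVX replicate 2 (0.166), and under DESeq2's Wald test (0.117).

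Of the summed plakophilin level per length, PKP3 made up 84.7 and 84.3% in WT and 88.1 and 88.6% in HSF1-pLVX libraries. The share of PKP2 was 15.2 and 15.4% in WT and 11.3 and 10.9% in HSF1-pLVX libraries, and PKP1 stayed below 0.6% in every library. The sum of the 3 genes was 93.1 ± 3.48 CPM per kb in WT and 71.3 ± 1.91 CPM per kb in HSF1-pLVX cells (SD, n = 2; exact permutation p = 0.333, the smallest possible). It was lower in both HSF1-pLVX libraries than in either WT library, in the opposite direction to the sum of the cadherins.

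PERP (ENSG00000112378.11, chromosome 6, 138088505 to 138107511) encodes a membrane protein needed for desmosome assembly in stratified epithelia and is a known target of p53 and p63. It had 935 and 1028 CPM in WT and 462 and 488 CPM in HSF1-pLVX cells, a mean 2.07-fold lower. The fitted log2 fold change was -1.05 (SE 0.101; edgeR adjusted p = 4.56e-07). With library size as the only normalization the value was -0.99, just inside 2-fold, and the call at an adjusted p of 0.05 was kept.

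**Figure D4:**
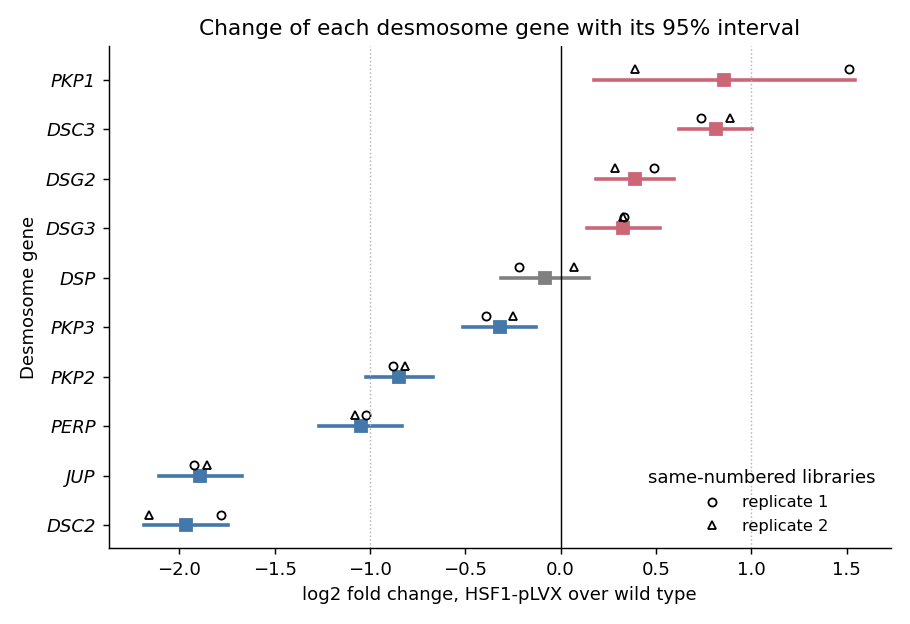
Fitted log2 fold change of HSF1-pLVX over WT for each desmosome gene (squares) with its 95% interval (bars), and the log2 difference of CPM between same-numbered libraries (open symbols), with dotted lines at 2-fold. DSC2, JUP and PERP lie below -1, PKP1 has the widest interval, from 0.17 to 1.54, and DSP crosses 0.

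Ranked by level per length, JUP led in WT cells with 285 ± 4.61 CPM per kb, followed by PERP with 229 ± 15.3, DSP with 81.7 ± 10.2, PKP3 with 78.7 ± 3.21, DSG3 with 58.2 ± 1.11 and DSG2 with 49.3 ± 0.786 CPM per kb (SD, n = 2). DSC2, DSC3, PKP2 with 14.2 ± 0.386 and PKP1 with 0.225 ± 0.111 CPM per kb came last. Among neighbours in this order, the libraries of DSP and PKP3 and those of DSC2 and DSC3 overlapped, and the other neighbours were apart. In HSF1-pLVX cells PERP led with 111 ± 4.30 CPM per kb, and DSP with 77.4 ± 1.32, JUP with 76.9 ± 1.51, DSG3 with 73.1 ± 1.24, DSG2 with 64.7 ± 5.36 and PKP3 with 63.0 ± 1.91 CPM per kb followed within a narrow range. DSC3, PKP2 with 7.90 ± 0.0208, DSC2 and PKP1 with 0.407 ± 0.0140 CPM per kb came last. Here the libraries of DSP and JUP and those of DSG2 and PKP3 overlapped. The order depends on the length used. With that of the canonical transcript, JUP again led in WT cells, but in HSF1-pLVX cells it ranked 2 with 108 ± 2.13 CPM per kb, overlapping PERP with 113 ± 4.39, and PKP3 ranked above DSP in both variants.

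The study takes the ratio of the authors' normalized values within each replicate number. It keeps genes for which both ratios exceed 2 or both are under 0.5. This rule was applied as a description. Each ratio was taken as 2 to the power of the difference of the deposited log2-like values, which assumes a log2 scale. DSC2 passed it downwards with ratios of 0.285 and 0.225 in replicates 1 and 2, JUP with 0.255 and 0.276, and PERP with 0.478 and 0.472. These 3 of 10 genes compare with 6.42% of the 22321 rows of that table. The rule was passed upwards by 0 of the 10 genes and by 5.00% of all rows. These rows outnumber the 15830 tested genes, so both shares cover genes that did not pass the filter on low counts. Among tested genes, 14.0% were called at least 2-fold lower and 14.9% at least 2-fold higher by the edgeR test. PKP2 lay just outside the rule with 0.531 and 0.568, DSC3 had 1.61 and 1.83, and PKP1 had 2.01 in replicate 1 but 1.22 in replicate 2.

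Other genes that belong to desmosomes or associate with them formed a list of 9, of which 5 passed the filter. Among these, 2 were higher, 2 were lower and 1 did not pass the test, with a median log2 fold change of 0.01. Over all tested genes 32.7% were called higher and 33.2% lower. EVPL and PPL encode envoplakin and periplakin, plakins that join desmosomes to the cornified envelope, and both were lower. EVPL went from 213 and 199 CPM to 91.9 and 88.1 CPM (log2 fold change -1.19, standard error 0.0885), and PPL from 490 and 445 CPM to 252 and 270 CPM (-0.84, 0.0960). KAZN, which encodes the periplakin-binding protein kazrin, rose from 13.7 and 13.3 CPM to 27.6 and 25.9 CPM (0.98, 0.106). PNN, which encodes pinin, a protein of the nucleus that has also been placed at desmosomes, rose from 68.9 and 69.1 CPM to 124 and 119 CPM (0.82, 0.0835). PKP4, a relative of p120-catenin found at adherens junctions and desmosomes, had 77.0 and 70.6 CPM in WT and 78.4 and 70.1 CPM in HSF1-pLVX cells. Its log2 fold change of 0.01 had a 95% interval from -0.18 to 0.20. CDSN, the corneodesmosin gene, held 7 and 1 counts in WT and 1 and 0 counts in HSF1-pLVX libraries and, like DSC1, DSG1 and DSG4, did not pass the filter.

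Of 12 intermediate filament genes, most of them keratins, 9 were lower and 3 higher, beside 33.2% and 32.7% of all tested genes. The median log2 fold change of the list was -1.47. The largest changes were falls of KRT14 (log2 fold change -3.55), the partner of keratin 5 in basal cells, of KRT8 (-3.24), the main keratin of simple epithelia, and of KRT16 (-2.82) and KRT17 (-2.56), keratins of activated epithelium. The 3 genes that were higher, named after their values were seen, were KRT5, KRT15 and VIM. KRT5, the partner of KRT14, rose from 2138 and 2088 CPM to 4293 and 4890 CPM (log2 fold change 1.12). KRT15, another basal keratin, rose from 703 and 759 CPM to 3143 and 4015 CPM (2.29), and VIM, which encodes the mesenchymal filament protein vimentin, from 10.7 and 13.9 CPM to 46.6 and 50.5 CPM (1.98). The basal keratins were thus called in both directions. Keratins of 1 type are similar in sequence and some, KRT14, KRT16 and KRT17 among them, have pseudogenes, so reads may have been divided among copies. KRT8 and KRT18 also overlap on opposite strands of chromosome 12, and the strand setting of the counts is not given. The values of all these keratins are uncertain. The list was lower in sum as well, at between 24846 and 25432 CPM in WT and between 14355 and 15486 CPM in HSF1-pLVX cells.

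Of 11 core genes of adherens junctions, the sister junctions anchored to actin, 7 were lower and 3 higher, beside 33.2% and 32.7% of tested genes. The remaining 1 did not pass the test, and the median log2 fold change of the list was -0.71. NECTIN4 (-2.64), NECTIN2 (-1.37) and CDH1 (-1.43), which encodes E-cadherin, fell, and NECTIN1 (2.58) rose, nectins being immunoglobulin-like adhesion proteins of these junctions. As in the desmosome list, members of 1 family (the nectins) were called in both directions, in a comparison that called 65.9% of all tested genes.

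Of 16 transcription factors linked to desmosome or epithelial junction genes, 6 were higher and 5 lower, beside 32.7% and 33.2% of tested genes. Another 5 did not pass the test, and the median log2 fold change of the list was 0.07. TP63, the regulator of basal epithelial identity, rose from 10.4 and 8.99 CPM to 106 and 110 CPM (log2 fold change 3.48, standard error 0.103). ZEB2, a repressor of epithelial genes, rose from 7 and 3 counts to 51 and 52 counts (3.08, 0.411). OVOL1, an opponent of mesenchymal factors, fell from 31.3 and 33.7 CPM to 4.38 and 3.22 CPM (-3.08, 0.142). GRHL1, a grainyhead-like factor known to regulate DSG1, fell from 32.4 and 40.9 CPM to 13.1 and 9.16 CPM (-1.71, 0.151).

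The list of desmosome assembly and turnover held 10 genes (kinases, proteases, transport and modifying enzymes). Of these, 3 were higher and 6 lower, beside 32.7% and 33.2% of all tested genes. The other 1 did not pass the test, and the median log2 fold change of the list was -0.34. Without HSF1-pLVX replicate 2 the number lower was 3. KIF5B, the heavy chain of the kinesin that carries desmoglein 2 to the membrane, was the only one called beyond 2-fold, with 312 and 297 CPM in WT and 151 and 141 CPM in HSF1-pLVX cells (log2 fold change -1.06, standard error 0.0903).

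**Figure D5:**
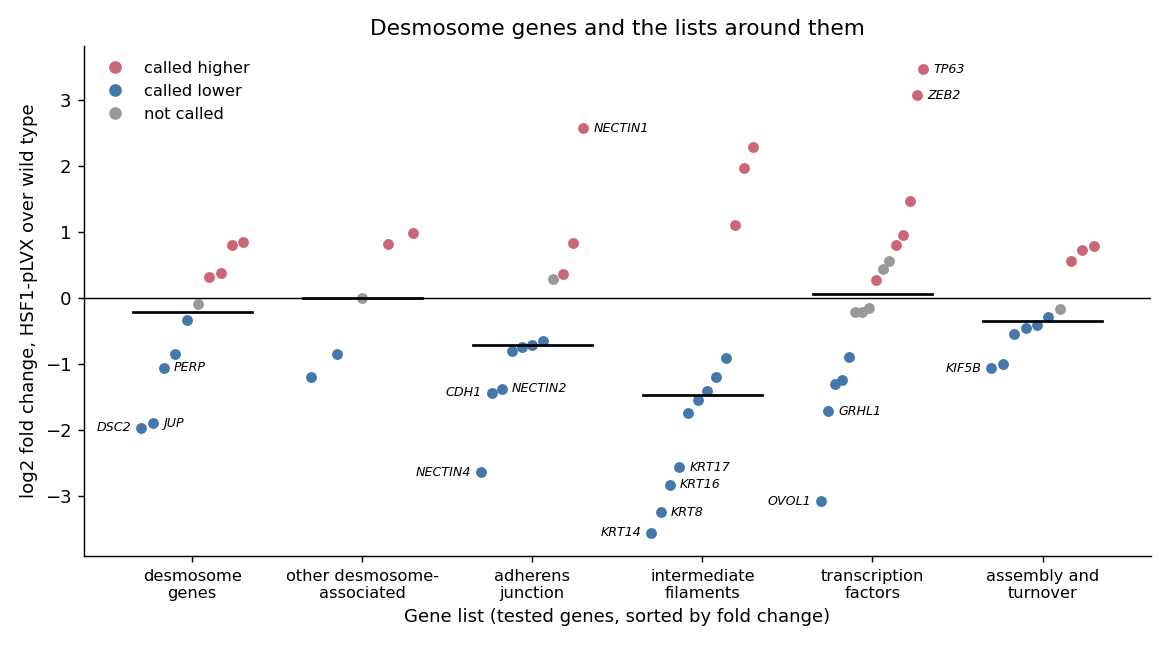
Log2 fold change of HSF1-pLVX over WT for the tested genes of the desmosome list and of 5 lists around it, each gene a point coloured by its call and each list with a line at its median. The medians are -0.20 for the desmosome genes and -1.47 for the intermediate filaments, and every list holds genes called in both directions. Calls over all tested genes were 32.7% higher and 33.2% lower.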

How the data were processed

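RNA-seq libraries of MCF10A cells, 2 of WT and 2 of HSF1-pLVX cells, were grouped by their titles. The authors aligned paired-end reads to hg38 with HISAT2 2.0.5, used SAMtools 1.13 and deposited raw counts per gene (GENCODE 26) made with featureCounts 1.6.5. Strand, overlap and multi-mapping settings are not given in the sources used here. They also deposited log2-like values per gene symbol, normalized with DESeq2 1.32.0 (transformation not given in the sources used here), which were used only for the ratio rule.

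The quasi-likelihood test of edgeR 4.0.16 was run on the counts (R 4.3.3; TMM, filterByExpr, no block, Benjamini-Hochberg adjustment over 15830 genes). Standard errors are the log2 fold change over the root of the F statistic, and intervals are at 95%. CPM are TMM-normalized. CPM per kb were divided by the counted exon length. Symbols are from GENCODE 44. Counts of HSF1 against WT were simulated in repeated draws, with 15429 genes in the mean. Summed over the draws, the test recovered 63.7% of 1.5-fold, 72.7% of 2-fold and 96% of 4-fold changes. Of its calls there, 8.82% were false, more than the nominal 5%. Only 146 changes of 1.5-fold and 150 at each of 2-fold, 4-fold and 8-fold were scored. The same genes were changed in each draw, so these numbers count a gene once for each draw. Between the libraries themselves 65.9% of tested genes were called. Both rates depend on the share of changed genes, and their values at so large a share were not tested. Calls with an adjusted p near 0.05 are the least certain. P-values measure the spread between these libraries, whose culture origin is given only as biological replicates. Each gene had 2 residual degrees of freedom, beside a median of 11.9 prior degrees of freedom drawn from all tested genes. The p-value and SE of a gene thus rest more on this pooled spread than on its own replicates. DESeq2 1.42.0 and limma 3.58.1 served as alternatives.

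A chi-square test of counts gave 6.62 per degree of freedom between the WT and 8.04 between the HSF1-pLVX libraries, so replicates differed by more than sampling noise. The members and lists were chosen with earlier results of these data known. Named were the 10 members, all other desmosome-associated genes listed, and of each other list up to 4 genes with the largest changes among those called beyond 2-fold. Genes chosen after their values were seen are COL1A1, DCN, DSG2-AS1, KRT5, KRT15 and VIM.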

Additional observations from a re-analysis of the deposited data

How the results depend on the processing

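Other normalizations, no filter, DESeq2's Wald test, limma-voom, a stricter adjusted p of 0.01 and each library left out in turn were tried. With a library left out, the lone library is assumed to vary like the other variant. DSC2, JUP, PERP, PKP2, DSC3 and DSG2 kept their direction and call under all of them.

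Leaving out each library in turn, the number of desmosome genes higher in HSF1-pLVX cells lay between 2 and 4 that at least 2-fold higher between 0 and 1 (PKP1 without WT replicate 2) and that at least 2-fold lower between 2 and 3, PERP being the gene near the limit. DSC2 fell more than JUP except without WT replicate 2 and without HSF1-pLVX replicate 2 (-1.89 against -1.91 and -1.84 against -1.90). The number of assembly and turnover genes lower lay between 3 and 6. Without HSF1-pLVX replicate 2, the calls of DSG3, PKP3 and PKP1 were lost. The log2 fold change of DSP, which was not called, lay between -0.20 and 0.074, the positive value being that without WT replicate 1.

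When levels were not divided by gene length, the differences in share between HSF1-pLVX and WT cells were -17.7 percentage points for DSC2, 7.59 for DSC3, 5.67 for DSG2, 4.42 for DSG3, 0.50 for PKP1, -6.31 for PKP2 and 5.81 for PKP3, none of which changed sign. With the length of the canonical transcript, a setting added after seeing the data, they were -4.87 for PKP2 and 4.59 for PKP3. Gene length enters these shares by construction.

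The replicate numbers of the labels were not taken as pairs: same-numbered deviations correlated at -0.01 over 15830 genes and at -0.11 over the 9672 genes above 8 CPM. With the replicate number as a block, 5138 genes were higher and 5171 lower, beside 5175 and 5253 without it, and no call of a desmosome gene changed. With the numbers crossed, an alternative added after seeing the data, 5429 were higher and 5487 lower.

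Depth limits PKP1, at 17 to 65 counts per library, and DSC1, DSG1, DSG4 and CDSN, at 0 to 7 counts.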
